A study of Homo sapiens with 6 samples.

Results

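OTUD5, HSD11B1L, GMPR, PADI3, CPED1 and DOP1A are 6 single genes out of the 20522 listed per library. They were chosen by the smallest p-values between the 2 groups of libraries described next, among genes that belong to no shared family. All 6 were among the 13109 genes with enough counts to be tested. The data were mRNA-seq libraries of K1, a human papillary thyroid carcinoma cell line, with 3 libraries from cells transfected with a negative control small interfering RNA (NC) and 3 from cells transfected with an siRNA against the long transcript NEAT1_2 (si-NEAT1_2). Both groups went through transfection, and the deposited files also held 1 table with a single value per group. The target of the siRNA was not analysed here, so its level was not used to check the labels.

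The 6 genes have separate functions. OTUD5 is a deubiquitinase of the OTU family that trims ubiquitin chains from TRAF3 and thereby restrains the production of type I interferon. GMPR, GMP reductase, returns GMP to IMP in purine metabolism. PADI3 is a peptidylarginine deiminase, an enzyme that turns arginine residues of proteins into citrulline and is best known for its action on trichohyalin and filaggrin in hair follicle and epidermis. HSD11B1L is a short-chain dehydrogenase related to the enzyme that regenerates cortisol from cortisone. CPED1 encodes a protein with cadherin-like and PC-esterase domains and lies beside WNT16 in a region known from studies of bone density. DOP1A encodes a leucine zipper-like protein that works with MON2 in traffic between endosomes and the Golgi.

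The genes higher in the si-NEAT1_2 libraries were GC-rich and the genes lower in them were GC-poor, and stretches of their coding sequence show the contrast. Each line gives 30 bases of the longest coding transcript in GENCODE release 29 (GRCh38), 5′ to 3′ on the sense strand, namely the first coding window whose GC share was nearest that of the whole transcript. Capitals mark G and C.
OTUD5: ataCtCCCCaaaaaGaaGCCGCCGCCtCCC
HSD11B1L: tGaaGGtGCttCtCCtCaCaGGGCtGGGGG
GMPR: GCataGatGCGGaCCtCaaGCtCGaCttCa
PADI3: atGtCGCtGCaGaGaatCGtGCGtGtGtCC
CPED1: aGatGCaaGaaaGGattCtCtCaGGaCaaa
DOP1A: atGaaCaCaGaaGaGCtGGaGttattGaGt
The windows held 18, 19, 16 and 17 G or C bases in OTUD5, HSD11B1L, GMPR and PADI3, and 12 in both CPED1 and DOP1A. Over the whole transcript the GC content was 59.5% in OTUD5, 64.1% in HSD11B1L, 54.7% in GMPR and 56.0% in PADI3, all above the median of 48.4% over 12581 tested genes with an annotated transcript. In CPED1 it was 39.1% and in DOP1A 41.6%, both below that median.

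The libraries held between 22798631 and 27066025 counts. CPM are counts scaled to a library of 1000000, and correlations of log2 CPM between libraries lay between 0.945 and 0.988. The thyroid factor PAX8 had between 9650 and 12856 counts per library and thyroglobulin (TG) between 477 and 632, while NKX2-1 had at most 3 counts, the TSH receptor gene TSHR at most 9 and the iodide transporter gene SLC5A5 at most 2. Of the marker lists, 5 of 8 thyroid, 6 of 6 epithelial, 5 of 5 fibroblast and 1 of 5 leukocyte genes were tested. None passed the threshold defined next, and neither did any other tested gene (0%). The fibroblast marker LUM (log2 fold change -0.39) and the leukocyte marker CD68 (0.55) had an unadjusted p under 0.05 in the same test. So had 24.1% of all tested genes. The summed level of the leukocyte markers, in reads scaled for transcript length and library size (FPKM), was 11.8 to 13.5 in the NC libraries and 15.1 to 20.0 in the si-NEAT1_2 libraries, and that of the fibroblast markers was 24.9 to 29.4 and 19.3 to 22.2. CD3E was at 1 count or fewer in each library. The part of these markers in the values of the 6 genes was not tested.

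A gene was called where edgeR's quasi-likelihood test gave an adjusted p (Benjamini-Hochberg) under 0.05 together with a change of 2 times or more. The lowest adjusted p over all genes was 0.0659, so 0 genes were called higher and 0 lower (percent called 0 in both directions), and none of the 6 genes passed. At an unadjusted p under 0.05 there were 3165 genes, 24.1% of those tested. The 6 genes held ranks 2, 4, 5, 6, 8 and 11 in the order of p-values, and the other places down to rank 11 went to members of gene families, among them TPM4, SERPINA1, CLDN2 and ICAM1. PADI3 was the last gene inside, with a log2 fold change of 0.84 (SE 0.150), and F11R (0.69, SE 0.124) and G3BP2 (-0.78, SE 0.141) were the first outside. Because these p-values chose the genes, their values are given as a description and without a test. Neither the labels nor the methods say that the libraries of a group came from separate cultures, so the spread given is between these libraries and may be technical.

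Among the genes with higher values in the si-NEAT1_2 libraries, OTUD5 was the most abundant. Its expected counts were 1291, 927 and 1145 in NC replicates 1, 2 and 3, and 1944, 2040 and 2265 in si-NEAT1_2 replicates 1, 2 and 3. Scaled to library size by TMM, these were 47.1, 39.3 and 44.4 CPM against 79.1, 85.7 and 90.6. The lowest si-NEAT1_2 library lay 1.68 times above the highest NC library. The means were 43.6 ± 3.94 and 85.1 ± 5.79 CPM (SD, n = 3 in each group), with a log2 fold change of 0.96 (SE 0.130). OTUD5 (ENSG00000068308) lies on the minus strand of chromosome X of GRCh38 from 48922028 to 48958386.

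HSD11B1L, a gene of low counts, had the largest fold change of the 6 in counts. The NC libraries held 32, 20 and 19 counts and the si-NEAT1_2 libraries 92, 79 and 102. As CPM these were 1.17, 0.849 and 0.737 against 3.74, 3.32 and 4.08, and the groups were separated by a factor of 2.84. The means were 0.918 ± 0.224 and 3.71 ± 0.382 CPM (SD, n = 3), with a log2 fold change of 2.01 (SE 0.308). The gene (ENSG00000167733) lies on chromosome 19, plus strand, from 5680604 to 5688523, inside the span annotated for the ribosomal protein gene RPL36 on the same strand, which held between 7310 and 15621 counts. C19orf70 overlaps its 5′ end on the opposite strand. The expected counts of HSD11B1L and RPL36 were whole in every library, so these values show no division of reads between them. The counts of HSD11B1L remain uncertain where reads could be assigned to either neighbour.

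GMPR held 58, 43 and 54 counts in the NC libraries and 117, 143 and 141 in the si-NEAT1_2 libraries. Its CPM were 2.12, 1.82 and 2.09 against 4.76, 6.01 and 5.64, so that each si-NEAT1_2 library exceeded each NC library by at least 2.25 times. The means were 2.01 ± 0.162 and 5.47 ± 0.641 CPM (SD, n = 3), a log2 fold change of 1.44 (SE 0.238). GMPR (ENSG00000137198) lies on the plus strand of chromosome 6 from 16238580 to 16295549.

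PADI3 had the smallest fold change. Counts of 595, 388 and 491 in the NC libraries stood against 859, 765 and 877 in the si-NEAT1_2 libraries. The CPM were 21.7, 16.5 and 19.0 against 34.9, 32.1 and 35.1, and the groups were 1.48 times apart at their nearest libraries. The means were 19.1 ± 2.62 and 34.0 ± 1.67 CPM (SD, n = 3), with a log2 fold change of 0.84 (SE 0.150). PADI3 (ENSG00000142619) lies on the plus strand of chromosome 1 from 17249098 to 17284233.

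CPED1 and DOP1A had lower values in the si-NEAT1_2 libraries. CPED1 held 338, 383 and 318 counts in the NC libraries and 141, 99 and 136 in the si-NEAT1_2 libraries. Its CPM were 12.3, 16.3 and 12.3 against 5.73, 4.16 and 5.44, and the lowest NC library was 2.15 times the highest si-NEAT1_2 library. The means were 13.6 ± 2.26 and 5.11 ± 0.839 CPM (SD, n = 3), a log2 fold change of -1.41 (SE 0.204). CPED1 (ENSG00000106034) lies on the plus strand of chromosome 7 from 120988677 to 121297444.

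DOP1A held 247, 336 and 278 counts in the NC libraries against 89.8, 48.5 and 90.5 in the si-NEAT1_2 libraries, and is the 1 gene of the 6 whose expected counts were not whole, as in 17.6% of tested genes. Its CPM were 9.01, 14.3 and 10.8 against 3.66, 2.02 and 3.60, with the nearest libraries 2.46 times apart. The means were 11.3 ± 2.67 and 3.09 ± 0.933 CPM (SD, n = 3), and the log2 fold change was -1.87 (SE 0.272). NC replicate 2 was the highest and si-NEAT1_2 replicate 2 the lowest of all libraries, both for DOP1A and for CPED1. DOP1A (ENSG00000083097) lies on the plus strand of chromosome 6 from 83067666 to 83171350.

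**Figure D1:**
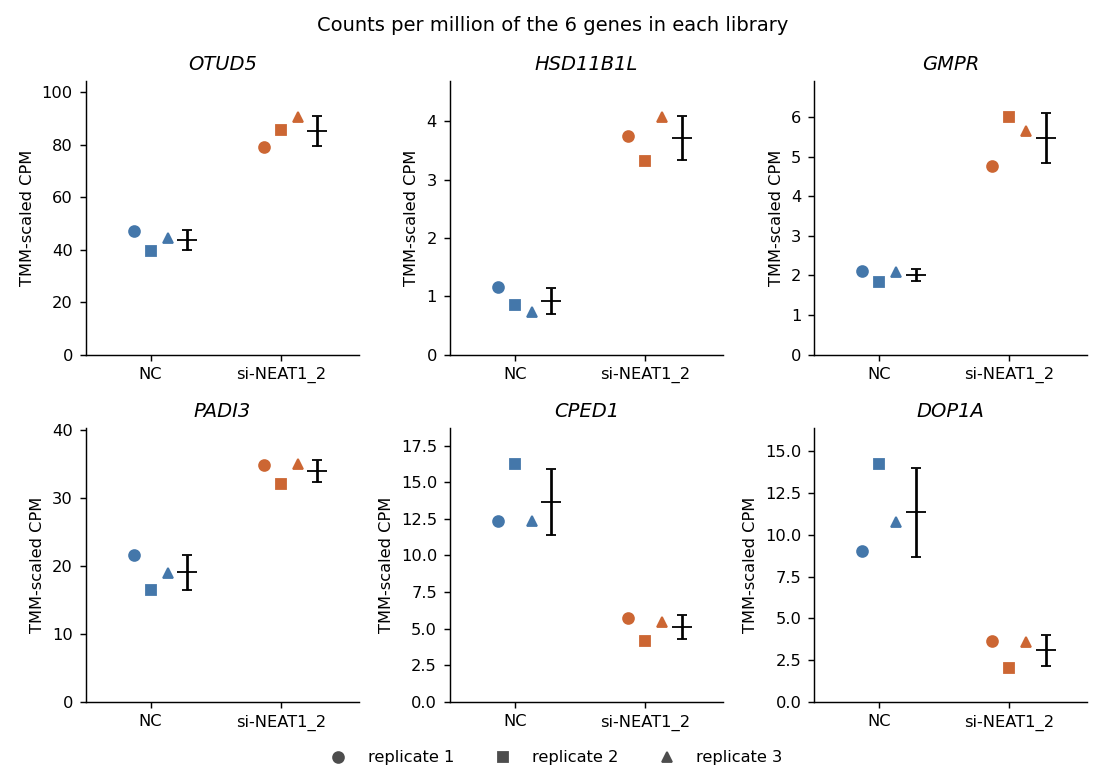
Each panel plots the TMM-scaled CPM of 1 gene (y axis from 0, a separate scale per panel) in the 3 NC and 3 si-NEAT1_2 libraries, with a symbol per replicate and the mean ± SD as a bar beside them. The 2 groups do not overlap in any panel, and as a ratio they lie closest in PADI3 (1.48 times), where 32.1 CPM in the lowest si-NEAT1_2 library stands above 21.7 in the highest NC library.

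The groups did not overlap in any of the 6 genes, beside 29.5% of all tested genes (15.4% with higher and 14.1% with lower si-NEAT1_2 libraries), and nothing is read from this because the same contrast chose the genes. They differed in how tightly the libraries of a group lay together. The within-group SD of log2 CPM was 0.12 in OTUD5, 0.15 in GMPR and 0.15 in PADI3, at the 14.4th, 24.6th and 26.0th percentile of tested genes. In CPED1 and HSD11B1L it was 0.24, at the 55.8th and 57.8th percentile, and in DOP1A 0.41, at the 83.5th. CPED1, HSD11B1L and DOP1A thus varied more between replicates than the median tested gene. These percentiles are over genes of all abundances, and spread enters the p-values that chose the genes, so they are a description only.

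Per transcript length (FPKM), the order of the NC libraries was OTUD5 (18.1 ± 1.43), PADI3 (6.10 ± 0.775), CPED1 (4.38 ± 0.440), DOP1A (2.27 ± 0.847), GMPR (1.35 ± 0.0982) and HSD11B1L (0.793 ± 0.200), as means ± SD with n = 3. In the si-NEAT1_2 libraries it was OTUD5 (33.7 ± 3.32), PADI3 (10.5 ± 1.03), GMPR (3.52 ± 0.275), HSD11B1L (2.89 ± 0.380), CPED1 (1.97 ± 0.116) and DOP1A (0.377 ± 0.127). GMPR and HSD11B1L, neighbours in the second order, met at 3.20 and 3.21 FPKM, and the libraries of the other neighbours did not overlap. CPED1 and DOP1A stood above GMPR and HSD11B1L in the first order and below them in the second.

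Fold changes followed GC content across the whole table. Over 12581 genes the Spearman correlation of the log2 fold change was 0.65 with GC content and -0.53 with transcript length, a description over genes, which share the 6 libraries. In 4 equal groups of genes, from the lowest to the highest GC content, the median log2 fold change was -0.35, -0.10, 0.12 and 0.28. Single libraries carried this trend to different extents, since the correlation of a library's deviation with GC content was -0.26, -0.66 and -0.35 in NC replicates 1, 2 and 3, and -0.15, 0.52 and 0.62 in si-NEAT1_2 replicates 1, 2 and 3. A correction that removed, per library, a smooth trend on GC content and transcript length brought the correlations to 0.0075 and -0.020.

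All 6 genes kept their direction with the correction and lost part of their size. OTUD5 had 49.5, 46.1 and 46.7 corrected CPM in the NC libraries and 79.8, 73.3 and 80.8 in the si-NEAT1_2 libraries, and its log2 fold change became 0.72 (SE 0.0815). In HSD11B1L the corrected CPM were 1.296, 1.07 and 0.791 against 3.84, 2.46 and 3.57, with 1.64 (SE 0.316). GMPR had 2.24, 2.26 and 2.26 against 4.75, 4.58 and 5.23, with 1.10 (SE 0.205). The SD of these NC libraries was 0.0147 CPM (n = 3), against 0.162 before the correction. With 58, 43 and 54 counts in these libraries, so small an SD lies below counting error, and no gain in precision is read from it.

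PADI3 had 22.2, 18.5 and 19.8 corrected CPM in the NC libraries and 34.8, 29.6 and 32.0 in the si-NEAT1_2 libraries, a log2 fold change of 0.67 (SE 0.109). CPED1 moved to 12.01, 11.92 and 11.26 against 5.56, 5.71 and 6.27, with -1.005 (SE 0.137). The DOP1A values were 8.59, 10.5 and 9.75 against 3.55, 2.98 and 3.94, with -1.45 (SE 0.174). For these genes of low GC content the SD of the NC libraries went from 2.26 to 0.411 CPM in CPED1 and from 2.67 to 0.981 in DOP1A.

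The groups remained separate in all 6 genes, beside 21.7% of the 12581 genes in the corrected fit. The nearest libraries were between 1.34 times (PADI3) and 2.18 times (DOP1A) apart. The share of the log2 fold change that remained ran from 71.1% in CPED1 to 81.5% in HSD11B1L. In the corrected fit 1 gene was called higher (0.00795%) and 3 were called lower (0.0238%), and CPED1 and DOP1A were 2 of those 3. Again, the contrast that chose the genes is the one tested here, and nothing is read from this count.

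**Figure D2:**
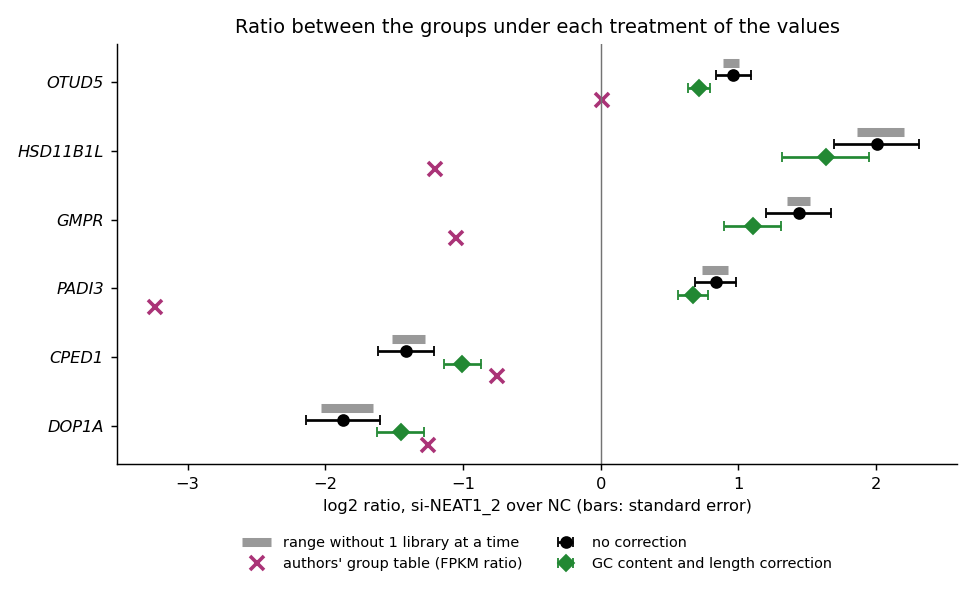
For each gene the x axis gives the log2 ratio of si-NEAT1_2 to NC without a correction (black, with SE), with the GC content and length correction (green, with SE) and in the authors' group table (crosses, 1 value per group and so no error), and the grey bar spans the uncorrected values with each library left out in turn. Black and green points lie on the same side of 0 for all 6 genes, while the crosses of HSD11B1L, GMPR and PADI3 lie on the other side.

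**Figure D3:**
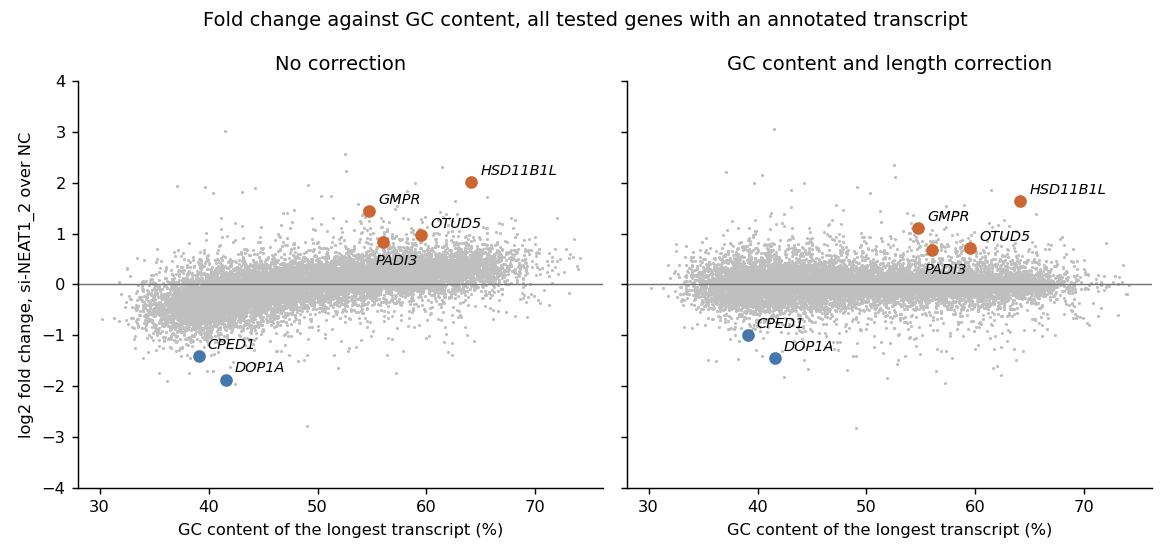
Each grey point is 1 of 12581 tested genes, with GC content of its longest transcript (%) on the x axis and the log2 fold change on the y axis, before (left) and after (right) the correction, and the 6 genes are marked. The tilt of the grey cloud on the left is absent on the right, where HSD11B1L stands at 1.64 and DOP1A at -1.45.

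The labels carry a library code with an L number whose meaning they do not give. Code 2 held NC replicates 2 and 3 and si-NEAT1_2 replicate 2, code 3 held NC replicate 1 and si-NEAT1_2 replicate 3, and code 4 held si-NEAT1_2 replicate 1 alone. Within code 2 the ratio of si-NEAT1_2 to NC was 2.05 in OTUD5, 4.19 in HSD11B1L, 3.07 in GMPR and 1.81 in PADI3, and within code 3 it was 1.92, 3.50, 2.67 and 1.62. For CPED1 the ratio was 0.291 and 0.441, and for DOP1A 0.161 and 0.3996. The ratios kept their direction within both codes, also with the correction, where DOP1A had 0.294 and 0.459. Groups that do not overlap leave no other direction possible, so nothing is read from this. These ratios rest on 1 si-NEAT1_2 library in each code. Because si-NEAT1_2 replicate 1 is alone in its code, it does not inform the log2 fold change fitted with the code as a covariate. That log2 fold change was 0.99 in OTUD5, 1.95 in HSD11B1L, 1.53 in GMPR, 0.79 in PADI3, -1.51 in CPED1 and -2.02 in DOP1A. In that fit 0 genes were called higher and 0 lower.

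The expected count and the FPKM of a library together give the transcript length that the quantification used for a gene. For PADI3 this was 3187 to 3191 bases in the 6 libraries, the length of its annotated transcript of 3189 bases, and for GMPR 1513 to 1521 bases, against 1515 annotated. OTUD5 stayed between 2403 and 2517 bases and HSD11B1L between 1097 and 1357. The fold between the groups was 1.86 in FPKM and 1.95 from counts in OTUD5, 3.64 and 4.02 in HSD11B1L, 2.60 and 2.71 in GMPR, and 1.71 and 1.78 in PADI3.

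In DOP1A the length differed between the groups. It was 4831, 4545 and 6536 bases in the NC libraries and 8093, 8158 and 8180 in the si-NEAT1_2 libraries, a mean log2 difference of 0.64, larger in size than in 99.2% of tested genes. A difference of at least 0.5 in size was present in 1.56% of genes, and lengths that did not overlap between the groups in 11.1%. GENCODE lists coding transcripts of 511, 7743, 7995 and 8210 bases for DOP1A, a processed transcript of 5473 bases and retained-intron transcripts of 631 and 746 bases. The fold of DOP1A in FPKM, 6.03 lower in the si-NEAT1_2 libraries, was therefore larger than the 3.66 from counts. For CPED1 the length was 2858, 3485 and 3189 bases in the NC libraries and 2797, 2061 and 2775 in the si-NEAT1_2 libraries, against coding transcripts of 1056 to 5340 bases, and the fold was 2.23 in FPKM and 2.66 from counts.

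**Figure D4:**
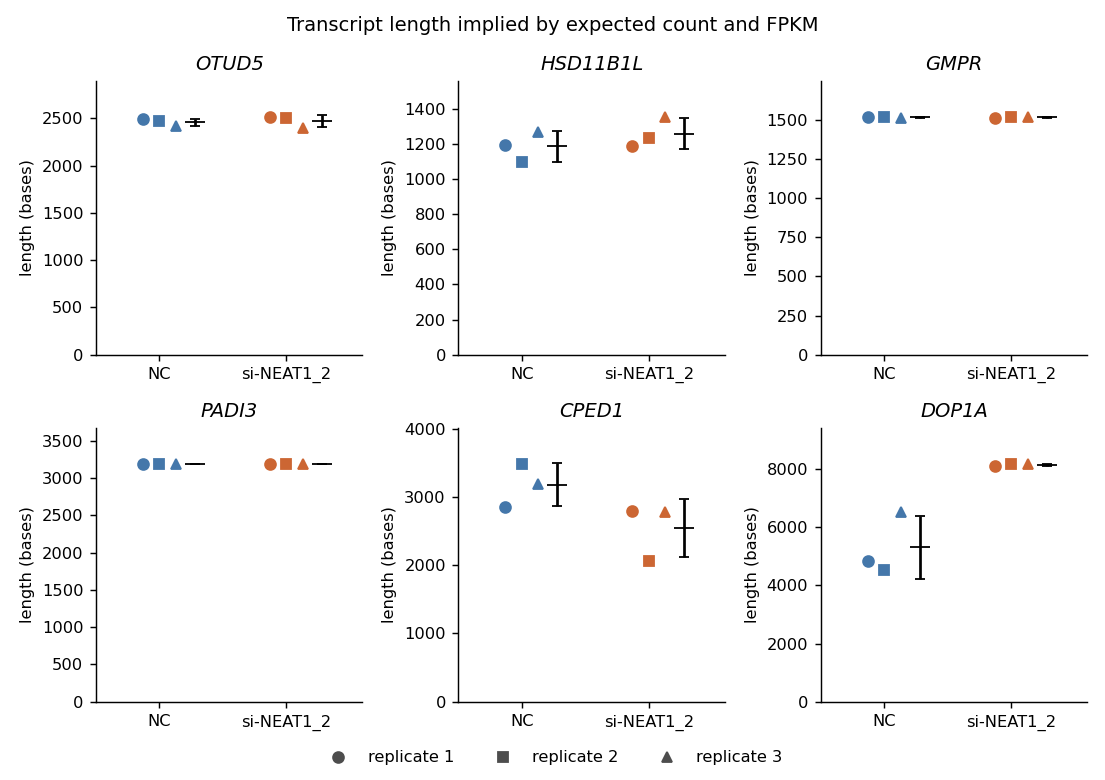
Each panel plots, for 1 gene, the transcript length in bases (y axis from 0) implied by the expected count, the FPKM and the total of each library, with a symbol per replicate and the mean ± SD beside them. PADI3 and GMPR are flat, whereas in DOP1A the 3 si-NEAT1_2 libraries sit between 8093 and 8180 bases, above all NC libraries.

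DOP1A shares its 3′ end with PGM3, an enzyme gene of hexosamine synthesis that lies on the opposite strand and overlaps it by 10201 bases. The decimals of the 2 genes added up to whole numbers in all 6 libraries (within 0.011 counts), and PGM3 was the 1 gene of 20522 for which this held. Reads were thus divided between them, and whether counting used the strand is not given in the sources used here. The DOP1A share of the summed counts was 14.6%, 16.5% and 16.7% in the NC libraries and 6.88%, 5.16% and 8.25% in the si-NEAT1_2 libraries, without overlap. The sum was 72.6 ± 14.5 CPM in the NC libraries and 44.7 ± 8.93 in the si-NEAT1_2 libraries (SD, n = 3), a fold of 1.62. PGM3 alone had a log2 fold change of -0.49 (SE 0.165), and -0.04 with the correction. The DOP1A value is uncertain to the extent of this division.

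None of the nearest listed protein-coding genes on either side of the 6 passed the threshold, and neither did any other tested gene (0%). At an unadjusted p under 0.05 in the same edgeR test were PIM2, RPL36, ING3 and PGM3, beside 24.1% of all tested genes. Beside OTUD5, PIM2 had a log2 fold change of 0.58 (0.30 with the correction) and KCND1 0.43 (0.30). RPL36 around HSD11B1L had 0.49 (0.01) and LONP1 0.26 (0.02), MYLIP and ATXN1 beside GMPR had 0.19 (0.22) and -0.43 (-0.17), and PADI1 beside PADI3 had 0.48 (0.36). PADI4, on the other side, held 1, 0 and 1 counts in the NC libraries and 8, 4 and 6 in the si-NEAT1_2 libraries, too few to be tested. ING3 beside CPED1 had -0.51 (-0.11), WNT16 had at most 3 counts, and UBE3D before DOP1A had 0.13 (0.09).

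Genes related to the 6 in function or family were counted in the same fit. The lists were chosen with earlier results of these data known. Of 80 genes in 7 lists 68 were tested and 0 were called, with a lowest adjusted p of 0.170. At an unadjusted p under 0.05 there were 22 (32.4%, against 24.1% of all tested genes), of which 7 were higher and 15 lower in the si-NEAT1_2 libraries, where 11.2% and 12.9% of all tested genes were. With the GC content and length correction 14 of the tested list genes were under that p, and without NC replicate 2 there were 3. Their median log2 fold change was -0.09, against 0.01 over all genes.

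For OTUD5, 12 other OTU deubiquitinases were tested, with a median of -0.34 (0.02 with the correction). OTUB1, which trims lysine-48 chains, had 71.2 ± 6.50 CPM in the NC libraries and 95.1 ± 16.8 in the si-NEAT1_2 libraries (SD, n = 3), a log2 fold change of 0.42. OTULIN, specific for linear chains, had -0.38, YOD1 -0.65 and VCPIP1 -0.62, and with the correction they had -0.02, -0.15 and -0.11. OTUD4 had -0.34 (0.11). Of 11 tested partners and targets of OTUD5, the interferon regulator IRF3 had 0.49 (0.08) and its kinase TBK1 -0.56 (-0.27), and the chromatin remodelling subunit ARID1B had -0.41 (-0.31). Their median was -0.18 (-0.12).

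Purine enzymes around GMPR had a median of 0.13 (0.05) over 17 tested. At an unadjusted p under 0.05 were PNP, purine nucleoside phosphorylase (0.33, corrected 0.08), the salvage enzyme APRT (0.41, corrected -0.07), the nucleotide kinase GUK1 (0.46, corrected -0.01), IMPDH2, which converts IMP towards GMP (0.34, corrected 0.05), and PPAT, the first committed enzyme of purine synthesis (-0.42, corrected -0.07). GMPR2, the second GMP reductase gene, had 36.4 ± 4.13 CPM in the NC libraries and 35.6 ± 2.09 in the si-NEAT1_2 libraries (SD, n = 3), a log2 fold change of -0.03 (SE 0.140). It exceeded GMPR in counts in all 6 libraries, with 789 to 1127.

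Among deiminases and their substrates 5 of 9 were tested, with a median of 0.04 (-0.21). Filaggrin (FLG), an epidermal substrate of deiminases, held 9292, 13850 and 10191 counts in the NC libraries and 5748, 1870 and 7774 in the si-NEAT1_2 libraries. The groups did not overlap and differed in the direction opposite to PADI3, with si-NEAT1_2 replicate 2 far below the others. Its log2 fold change was -1.08 (SE 0.387), and -1.04 with the correction, with an adjusted p of 0.171 in edgeR. PADI2 had at most 12 counts and PADI6 was at 0 in all libraries. Trichohyalin (TCHH), the hair follicle substrate, held 6 to 22 counts.

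DOP1A's partner MON2 had 45.2 ± 7.12 CPM in the NC libraries and 28.8 ± 6.82 in the si-NEAT1_2 libraries (SD, n = 3), a log2 fold change of -0.65, and -0.07 with the correction. In the list of 11 trafficking genes the phospholipid flippase ATP9A had -0.47 (-0.33), the golgin GOLGA4 -0.86 (-0.36) and the retromer subunit VPS26A -0.40 (-0.16), and the median was -0.29 (-0.03). DOP1B, the paralog of DOP1A, had -0.07 (0.04). For HSD11B1L, 8 of 10 glucocorticoid genes were tested, with a median of -0.05 (0.07), among them the glucocorticoid receptor gene NR3C1 (-0.51, corrected -0.05) and its target TSC22D3 (0.41, corrected 0.19). HSD11B1 itself had at most 3 counts. In the list for the CPED1 region 4 of 7 were tested, with a median of -0.25 (-0.0018), and ING3 was the 1 gene under the unadjusted p.

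The genes most like each of the 6 were taken by Pearson's r of log2 CPM over the 6 libraries among 9567 other genes, as a description. They were TYSND1 (r = 0.996) and ELF3 (0.995) for OTUD5, ZSWIM1 (0.995) and ATF6B (0.992) for HSD11B1L, BTBD2 (0.997) and SLC29A1 (0.993) for GMPR, and F11R (0.996) and IFNGR2 (0.993) for PADI3. INIP came first for both CPED1 (0.996) and DOP1A (0.999), followed by IPO8 (0.995) and PDXDC1 (0.995). Their own log2 fold changes were smaller, from -0.49 in IPO8 to 0.69 in F11R. With the correction F11R stood at 0.78 and INIP at -0.09. In 6 libraries whose groups do not overlap, r largely follows the contrast that chose the genes. PDXDC1 reached 0.995 with a log2 fold change of -0.14. As the highest r among 9567 genes was taken, nothing is read from its size.

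The authors' group table did not give the same picture. It held 40.9 FPKM for NC and 41.2 for si-NEAT1_2 in OTUD5, a log2 ratio of 0.01. That ratio is within the 95% interval of counting error alone (0.09 either way on the log2 scale, with the deposited group values taken as counts). For means of 3 counts the interval would be narrower, and it was not computed. CPED1 went from 0.787 to 0.467 FPKM (-0.75) and DOP1A from 0.867 to 0.363 (-1.25). These 3 ratios had the same sign as in the libraries, that of OTUD5 by a margin too small to give a direction.

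The other 3 genes had the opposite sign. HSD11B1L had 10.1 FPKM for NC and 4.40 for si-NEAT1_2 (-1.20), and GMPR 4.81 and 2.32 (-1.05). PADI3 had 5.73 and 0.607 FPKM, 9.44 times lower for si-NEAT1_2 (-3.24), where the libraries were 1.71 times higher in FPKM. The table as a whole leaned the same way, with a median log2 ratio of -0.24 over 12420 genes and 65.2% of them lower for si-NEAT1_2, and 16% lower and 4.15% higher by at least 2 times. HSD11B1L, GMPR, PADI3 and DOP1A were among the former.

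A mean of 3 libraries lies within their range, yet 10 of the 12 group values of the 6 genes lay outside the range of the libraries of their group, with a tolerance of 0.01 FPKM. Over all 12420 genes this was so for 82.2% of the values. The NC value of HSD11B1L was 12.8 times the mean of the NC libraries, that of GMPR 3.55 times and that of OTUD5 2.26 times, whereas the library mean was 5.56 times the NC value for CPED1. For si-NEAT1_2 the library mean of PADI3 was 17.3 times the group value. The NC value of PADI3 and the si-NEAT1_2 value of DOP1A lay within the range. The length implied for DOP1A in this table was 4409 bases for NC and 4816 for si-NEAT1_2, so the difference in length between the library groups was not seen there.

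**Figure D5:**
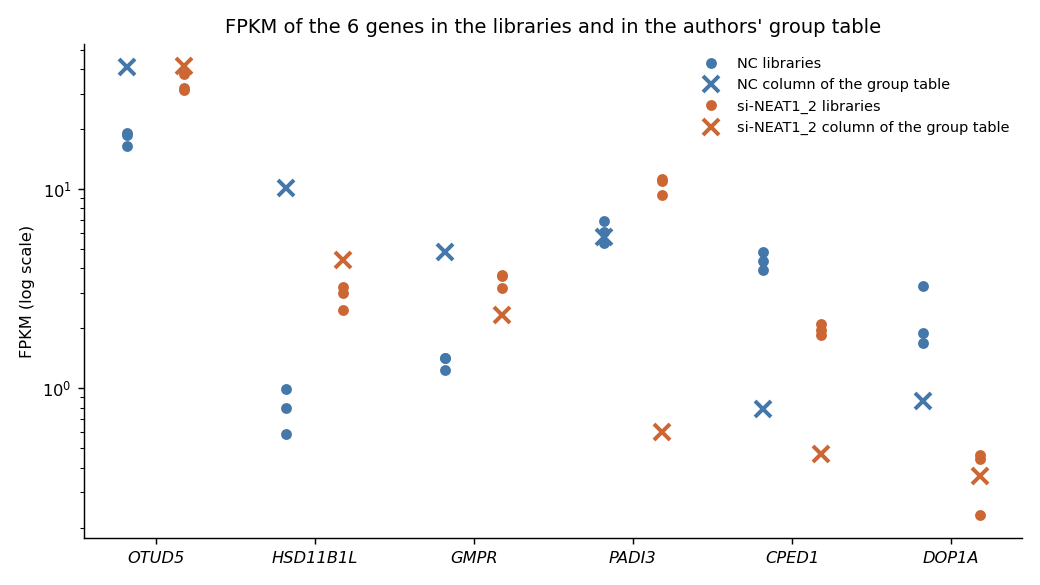
The y axis gives FPKM on a log scale for the 6 genes, with dots for the 3 libraries of each group and a cross for the value of that group in the authors' table. The crosses of HSD11B1L, GMPR and PADI3 are higher for NC than for si-NEAT1_2 while their dots are lower, and for CPED1 both crosses, 0.787 and 0.467, lie under all dots.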

How the data were processed

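Total mRNA of K1 cells was enriched with oligo(dT) beads and depleted of rRNA. The authors mapped reads with TopHat2 and quantified them with RSEM, according to the methods, while the submitters' processing notes name fastp 0.18.0, Bowtie2 2.2.8, HISAT2 and StringTie 1.3.1 with GRCh38. The annotation, and how the group table was made, are not given in the sources used here. The deposited expected counts are raw estimates for each gene and library, of which 9.19% to 9.61% were not whole. The deposited FPKM values, scaled by the authors for length and library size, have 2 decimals. All columns of per-sample values were mapped to a sample (0 were not). Groups were those of the labels.

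Expected counts were rounded to whole numbers, filtered with filterByExpr (13109 of 20522 genes), scaled by TMM and fitted with edgeR 4.0.16 (R 4.3.3), by its quasi-likelihood test, over 3 NC and 3 si-NEAT1_2 libraries. Totals of 22798631 to 27066025 counts limit precision for genes of low counts. Positions, GC content and lengths came from GENCODE release 29, in which 19684 genes were found. The correction fitted splines with 5 degrees of freedom on GC content and log length per library and entered them as offsets. CPM were computed without a prior count, while log2 CPM used a prior count of 2. Implied length is the expected count times 1000000000, divided by the product of FPKM and the library total. The fits with and without the correction were tested on simulated data, without a trend and with a linear trend on GC content, but with no trend on length. The outcome is not given here, and nothing is read from it.

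The 6 genes, the lists and the tests were chosen with earlier results of these data known. Genes named from lists were those at an unadjusted p under 0.05, at most 4 a list, the closest paralogs, the neighbours, and the 2 genes most like each gene among genes whose average log2 CPM reached 3. FLG counts, IMPDH2, PADI4, PADI6, TCHH, the markers and F11R and G3BP2 were added after their values were seen. Values of some genes that these rules name are not reported here. Same-numbered libraries did not deviate together in uncorrected log2 CPM (correlations -0.28, -0.36 and -0.01). These deviations carry the GC trend of each library, so they cannot decide whether libraries were paired. Although the methods speak of pairs of cells, no source used here says that a number marks a pair, so the numbers were not taken as pairs. Alternatives were DESeq2 1.42.0, its size factors in edgeR, no filter, limma-trend (limma 3.58.1) on log2(FPKM + 1) and log2(FPKM + 0.1), a replicate block, the correction, the library code and the omission of each library.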

Additional observations from a re-analysis of the deposited data

How the results depend on the processing

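Each of the 6 genes kept the sign of its log2 fold change in 15 of 15 alternatives. Nothing is read from this, because this contrast chose the genes, their groups do not overlap and all alternatives draw on the same 6 libraries. Without each library in turn the values were 0.89 to 1.01 for OTUD5, 1.86 to 2.21 for HSD11B1L, 1.36 to 1.52 for GMPR, 0.74 to 0.92 for PADI3, -1.51 to -1.27 for CPED1 and -2.03 to -1.65 for DOP1A. On log2(FPKM + 1) HSD11B1L had 1.12, GMPR 0.94, CPED1 -0.86 and DOP1A -1.22, and on log2(FPKM + 0.1) HSD11B1L had 1.76, CPED1 -1.11 and DOP1A -2.30. With the GC content and length correction the values were 0.72 (OTUD5), 1.64 (HSD11B1L), 1.10 (GMPR), 0.67 (PADI3), -1.005 (CPED1) and -1.45 (DOP1A), and with a replicate block besides they were 0.72, 1.65, 1.10, 0.67, -1.01 and -1.45. The replicate block alone moved none of the 6 by more than the spread between replicates, and 0 genes were called higher or lower with it.

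Counts of calls depended on the setting, and the cause was not tested. From 0 and 0 of the 13109 tested genes, they became 25 higher and 48 lower with DESeq2 on the same genes. They were 9 and 9 with no filter, 1 and 3 of 12581 genes with the correction, and 1 lower on log2(FPKM + 0.1). Without each library in turn, 0 to 32 genes were called higher and 0 to 184 lower. The highest counts came without replicate 1 of si-NEAT1_2, and 1 and 2 without its replicate 2. Of the 6 genes, 4 were called with DESeq2, 4 with no filter and 2 with the correction. In the fit lacking si-NEAT1_2 replicate 1, 5 were called, and 1 in that lacking its replicate 2. The contrast that chose the genes is also the one tested here, and nothing is read from these counts. Of the related genes, 22 at an unadjusted p under 0.05 became 8 with the replicate block, 14 with the correction, 6 with both, and 3 to 31 without each library in turn (3 when NC replicate 2 was left out and 11 when si-NEAT1_2 replicate 2 was). No NC library correlated best with the si-NEAT1_2 library of its own number, in uncorrected values that carry the GC trend, so this cannot decide on pairs. The directions in the group table were the same from counts and with a pseudocount. HSD11B1L, with 19 to 102 counts, and GMPR, with 43 to 143, are limited by depth.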
